A study of Mus musculus with 9 samples.

Results

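The transcripts described here encode 8 proteins that start or carry out programmed cell death in mouse dendritic cells (DC). They are caspase-1, caspase-8 and caspase-9 (Casp1, Casp8, Casp9), the kinases RIPK1 and RIPK3 (Ripk1, Ripk3), the necroptosis effector MLKL (Mlkl), gasdermin D (Gsdmd) and the inflammasome sensor NLRP3 (Nlrp3). They were chosen by name among the 39179 genes listed, with earlier results of these data known. All 8 passed the filter on low counts, which left 13819 genes. RNA was taken from conventional DC of type 1 (cDC1, CD8 positive), conventional DC of type 2 (cDC2, CD8 negative) and plasmacytoid DC (pDC) of the spleens of untreated C57BL/6J mice, described in the labels as at steady state. Each subset has 3 libraries, each from the pooled spleens of 15 to 17 mice, so that a value is a mean over many animals and a library is the unit of replication. The mice were 6 to 12 weeks old, and the labels give no sex. All groups are wild type and unstimulated, so the values are resting levels of transcripts and not a response to a death signal or a measure of protein or of its activation. The study asked how the DC subsets differ in activation and death after the cytosolic sensor STING is triggered, and the comparison here is of the resting subsets.

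Apoptosis, necroptosis and pyroptosis are separate routes to cell death that share components. In apoptosis, caspase-8 is activated at death receptors and caspase-9 on the APAF1 apoptosome after mitochondria release cytochrome c, and both cleave the executioner caspases. When caspase-8 is blocked, RIPK1 can activate RIPK3, which phosphorylates MLKL, and MLKL then breaks the plasma membrane (necroptosis). In pyroptosis, a sensor such as NLRP3 assembles with the adaptor ASC to activate caspase-1, which cleaves gasdermin D into a pore-forming fragment and matures interleukin-1β and interleukin-18. RIPK1 also serves as a scaffold in survival signalling from the TNF receptor. NLRP3 and caspase-1 are known mainly from macrophages, monocytes and conventional DC, while pDC are known for type I interferon production.

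Values are read counts per 1000000 counts of the library (CPM) after scaling by TMM, a factor for each library that keeps a few abundant genes from shifting all others. The libraries held between 15806597 and 32453789 counts, with the smallest total of each subset in replicate 3. The sort markers were in place, with Cd8a at 1434 CPM (mean of 3) in cDC1, 337 in pDC and 21.1 in cDC2. Itgam (CD11b) was at 235 in cDC2, 11.6 in cDC1 and 11.3 in pDC, and Bst2 (CD317) at 2324 in pDC and at most 85.7 in the other subsets. Of 7 genes listed as cDC1 markers and 6 as cDC2 markers, Irf8 and Cd4 were highest in pDC. Irf8 was at 2555 CPM in cDC1 and 4241 in pDC, and Cd4 at 399 in cDC2 and 1368 in pDC. The others were highest in their own subset. Replicate 3 stood apart from replicates 1 and 2. The summed level of 10 dissociation and stress response genes was 6178 CPM in cDC1 replicate 3 and 1957 and 2950 in the other cDC1 libraries, 6001 against 3140 and 3431 in cDC2, and 3988 against 1564 and 1637 in pDC. Among genes that the other libraries of the subset put at 10 to 40 counts, 21.2% (367 of 1733) were listed at 0 in pDC replicate 3 and 14.1% (243 of 1722) in cDC2 replicate 3, against 0.177% to 2.39% in the other 7 libraries. For the genes named below, calls that were lost without cDC2 replicate 3, without pDC replicate 3 or without all 3 replicate 3 libraries are given beside the result.

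Of the 8 genes, 5 differed among the 3 subsets (Casp1, Casp9, Ripk3, Gsdmd and Nlrp3), where 56.0% of all genes tested did (edgeR's quasi-likelihood F test, Benjamini-Hochberg adjusted p under 0.05). In pDC against cDC1, 4 were lower in pDC (Casp9, Ripk3, Gsdmd and Nlrp3) and 1 was higher (Casp1). Of all genes, 48.6% were called in that comparison, 24.4% lower and 24.3% higher. In pDC against cDC2, the same 5 genes passed the threshold and each was lower in pDC, beside 45.8% of all genes called, 23.3% lower and 22.5% higher. In cDC2 against cDC1, Casp1 and Nlrp3 were higher and Casp9 and Ripk3 lower, beside 24.4% of all genes called, 12.7% higher and 11.7% lower. The median log2 fold change of the 8 genes was -0.79, -0.83 and -0.10 in the 3 comparisons in this order, and that of all genes tested 0.02, -0.01 and 0.03. Over all genes tested, the libraries of the 2 subsets did not overlap for 58.6% of genes in pDC against cDC1, 56.1% in pDC against cDC2 and 44.5% in cDC2 against cDC1, so a gap between the groups is common. The 3 comparisons share libraries, so they are not independent of each other. Libraries of equal number share a date code, and this fit has no term for it. What they share therefore stays in the standard errors, intervals and adjusted p values given below, except where a replicate block is named. In bulk samples, fewer cells that use a gene and less RNA per cell cannot be told apart.

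**Figure D1:**
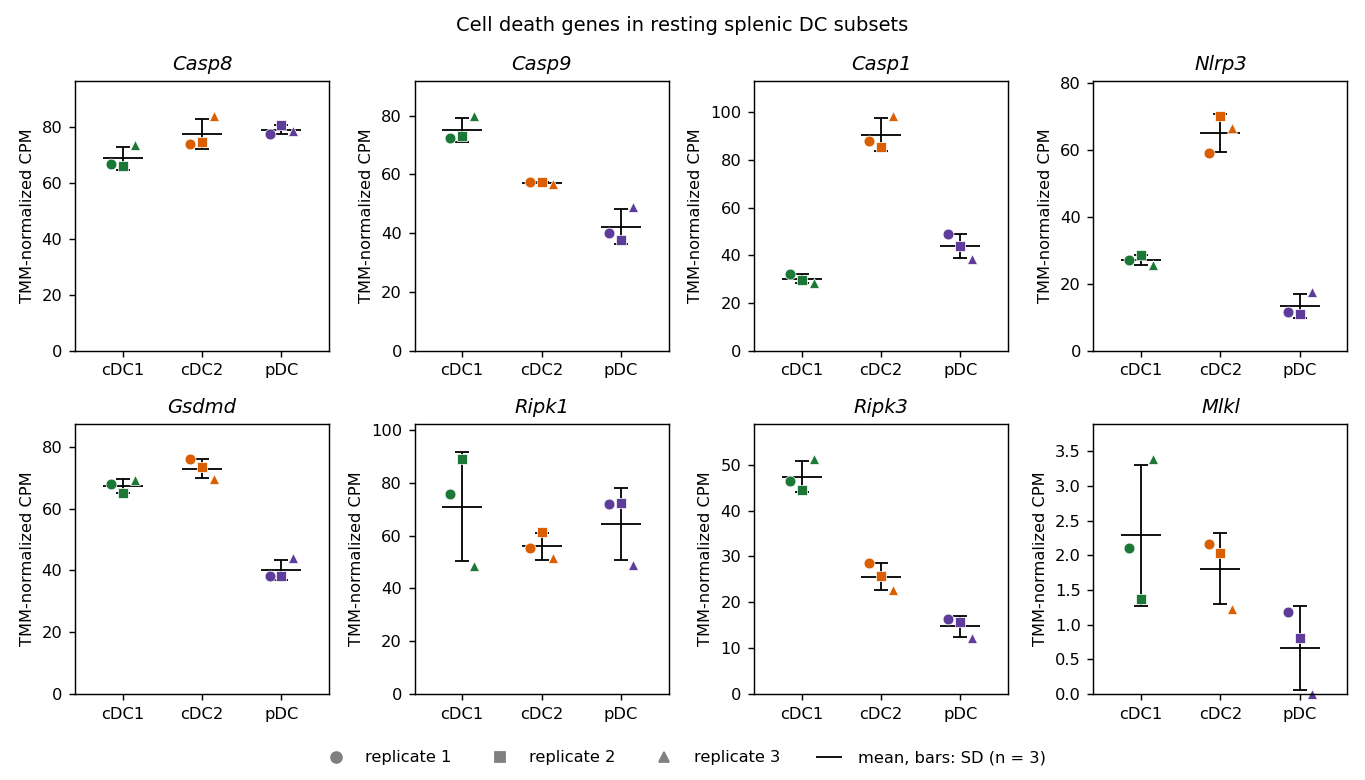
TMM-normalized CPM of the 8 genes (a panel each, its vertical axis starting at 0) in the 3 libraries of cDC1, cDC2 and pDC, with the marker giving the replicate number and black bars the mean and SD. Casp1 and Nlrp3 are highest in cDC2, Casp9 and Ripk3 step down from cDC1 to cDC2 to pDC, Gsdmd is lower in pDC, Ripk1 is lowest in replicate 3 of each subset, and Mlkl is at 0 in pDC replicate 3.

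Casp1, which encodes the protease that matures interleukin-1β and cleaves gasdermin D, was highest in cDC2. The gene (ENSMUSG00000025888) lies on the plus strand of chromosome 9 from 5298517 to 5307265 (GRCm38, GENCODE M21) in 10 exons, and no exon of another gene overlaps it. Its level was 32.2, 29.6 and 28.5 CPM in cDC1 replicates 1, 2 and 3. The cDC2 libraries held 87.8, 85.5 and 98.3 CPM and the pDC libraries 48.9, 44.0 and 38.6. The subsets did not overlap and stood in the order cDC2, pDC, cDC1. Casp1 was 3.00-fold higher in cDC2 than in cDC1 (log2 fold change 1.59, standard error 0.122, edgeR adjusted p = 1.76e-05). In pDC it was 2.06-fold lower than in cDC2 (log2 fold change -1.04, standard error 0.120, edgeR adjusted p = 7.08e-05) and 1.46-fold higher than in cDC1 (0.54, standard error 0.121, edgeR adjusted p = 0.00421). It was the only one of the 8 genes higher in pDC than in cDC1 past the threshold in this fit.

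Nlrp3 encodes the sensor that assembles an inflammasome in response to many danger signals, and it showed the widest difference between subsets among the 5 genes that passed the test. The gene (ENSMUSG00000032691) lies on the plus strand of chromosome 11 from 59541568 to 59566956 (GRCm38) in 10 exons. Its level was 27.1, 28.5 and 25.6 CPM in cDC1 and 58.9, 70.0 and 66.5 CPM in cDC2. In pDC it was 11.4, 11.0 and 17.5 CPM, below every cDC library. The cDC2 level was 4.91-fold that of pDC (log2 fold change of pDC against cDC2 -2.30, standard error 0.184, edgeR adjusted p = 5.67e-06). It was 2.41-fold that of cDC1 (log2 fold change 1.27, standard error 0.177, edgeR adjusted p = 0.000603). Nlrp3 in pDC was also 2.04-fold lower than in cDC1 (log2 fold change -1.03, standard error 0.180, edgeR adjusted p = 0.000996).

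The sequences upstream of Casp1 and Nlrp3 are shown because these are the 2 genes of the 8 that were higher in cDC2 than in both other subsets past the threshold. They are the 250 bases before a RefSeq transcript start on GRCm38.p6, both on the plus strand: for Casp1 chr9:5298267-5298516, just before the annotated gene, and for Nlrp3 chr11:59542436-59542685, before the second of its RefSeq starts and within an intron of the longer transcript. The window before the first Nlrp3 start held no motif match and is not shown, so the Nlrp3 window printed is the one with matches. Capitals mark matches on either strand to 2 motifs of myeloid and lymphoid transcription factors, the PU.1 core (GAGGAA or, on the other strand, TTCCTC) and an ETS-IRF composite (GGAANNGAA or its reverse complement).

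Casp1: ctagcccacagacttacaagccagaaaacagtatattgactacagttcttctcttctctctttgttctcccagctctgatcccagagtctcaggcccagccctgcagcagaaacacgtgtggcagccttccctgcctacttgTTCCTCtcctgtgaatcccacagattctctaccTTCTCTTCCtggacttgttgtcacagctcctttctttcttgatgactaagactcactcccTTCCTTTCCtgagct

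Nlrp3: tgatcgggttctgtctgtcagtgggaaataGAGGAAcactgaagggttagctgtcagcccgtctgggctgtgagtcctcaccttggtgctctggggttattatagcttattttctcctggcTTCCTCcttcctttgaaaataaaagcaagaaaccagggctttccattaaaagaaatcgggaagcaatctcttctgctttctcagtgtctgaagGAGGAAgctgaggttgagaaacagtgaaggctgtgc

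The Casp1 window holds the PU.1 core at 108 bases before the start and the ETS-IRF composite at 75 and 15 bases before it. The Nlrp3 window holds the PU.1 core at 220, 129 and 36 bases before the start, each position counted to the first base of the match. Of 32536 such windows in the table, 23.4% held the PU.1 core and 6.95% the composite. A PU.1 core followed by the right letters counts under both motifs, which happened in neither window shown. A pair of interferon regulatory factor sites (GAAANNGAA), present in 7.15% of windows, and the AP-1 motif (TGANTCA), present in 6.73%, had no match in these windows. RefSeq windows were given for 7 of the 8 genes (9 windows in all, none for Gsdmd). Of the other windows, the second start of Ripk1 held the PU.1 core, at 212 and 124 bases before the start, and those of Casp8, Casp9, Ripk3 and Mlkl and the first starts of Ripk1 and Nlrp3 held no match to any of the 4 motifs. A match is a description of letters and not evidence of binding.

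Gsdmd, the substrate of caspase-1 that forms the pyroptotic pore, was lower in pDC than in both cDC subsets. The gene (ENSMUSG00000022575) lies on the plus strand of chromosome 15 from 75862327 to 75867408 (GRCm38) in 11 exons. Its level was 68.1, 64.9 and 69.2 CPM in cDC1 and 76.0, 73.5 and 69.6 CPM in cDC2. All 3 pDC libraries were lower, at 38.1, 38.3 and 44.0 CPM. Gsdmd was 1.68-fold lower in pDC than in cDC1 (log2 fold change -0.75, standard error 0.102, edgeR adjusted p = 0.000193) and 1.82-fold lower than in cDC2 (-0.86, standard error 0.102, edgeR adjusted p = 8.01e-05). Between cDC2 and cDC1 the log2 fold change was 0.12, with a 95% interval of -0.11 to 0.34 (edgeR adjusted p = 0.478). The interval leaves room for a difference in either direction, and the cDC1 and cDC2 libraries did not overlap, though by only 69.2 against 69.6 CPM.

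Markers of macrophages and monocytes were measured beside these 3 genes, since both cell types are known to use them. The sum of 9 listed macrophage genes, all of them with counts in each subset, ranged from 165 to 248 CPM in cDC1, 211 to 408 in cDC2 and 64.9 to 253 in pDC. C1qa, a complement gene of resident macrophages, averaged 42.5 CPM in cDC2, 9.68 CPM in cDC1 and 15.3 CPM in pDC. Vcam1 averaged 67.9, 72.6 and 33.7 CPM and Hmox1 58.5, 73.3 and 47.9 CPM in cDC2, cDC1 and pDC, both highest in cDC1. Of the monocyte genes, Csf1r averaged 371, 64.0 and 60.0 CPM and Lyz2 1399, 329 and 175 CPM in cDC2, cDC1 and pDC. In the same order, Ccr2 averaged 135, 80.0 and 275 CPM and Cd14 4.59, 4.36 and 5.54 CPM, both highest in pDC. The sum of 6 listed monocyte genes was 374 to 610 CPM in cDC1, 1572 to 2218 in cDC2 and 2273 to 3429 in pDC, where Ly6c2, also a pDC gene, held most of it. The sums for neutrophil, NK cell, B cell, T cell and erythroid genes were at most 89.1 CPM in any library. The part of these cells in the levels of Casp1, Nlrp3 and Gsdmd was not tested.

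**Figure D2:**
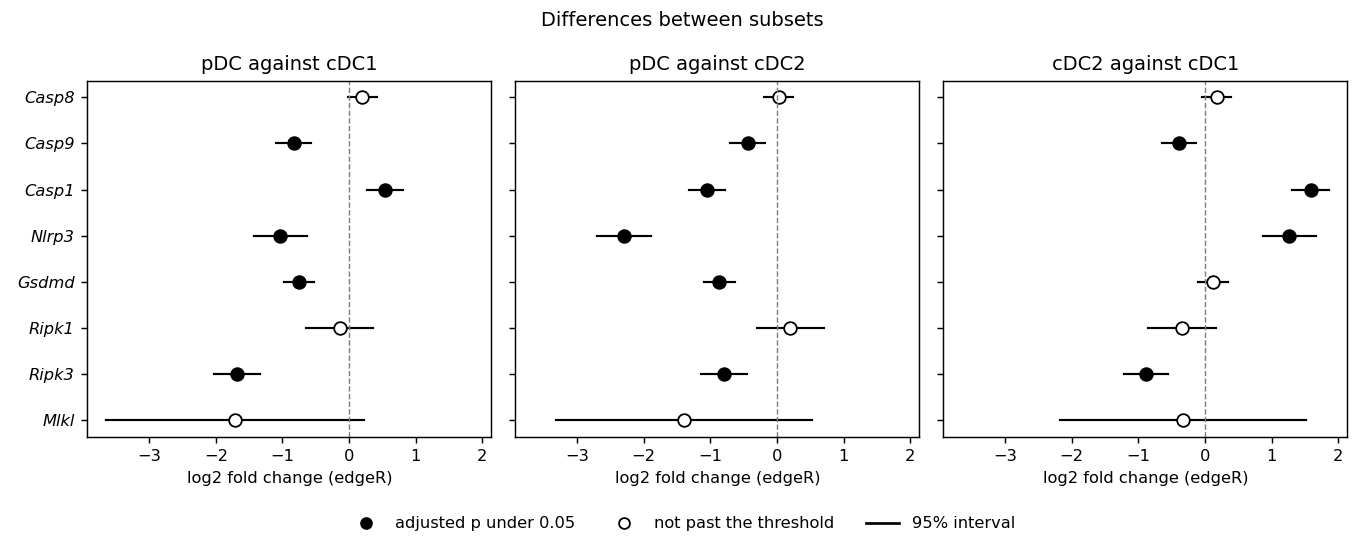
Log2 fold change (horizontal axis) of the 8 genes in the 3 comparisons of subsets, from the edgeR fit of all 9 libraries, with lines for the 95% interval and filled circles for an adjusted p under 0.05. Between pDC and cDC2 the 5 filled circles all lie below 0, from Nlrp3 at -2.30 to Casp9 at -0.44, and the intervals of Mlkl are the widest in each panel.

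Casp8, the initiator caspase of death receptors and the protease that holds necroptosis in check, was close to level across the subsets. The gene (ENSMUSG00000026029) lies on the plus strand of chromosome 1 from 58795374 to 58847503 (GRCm38), and its principal transcript has 9 exons. Its level was 66.7, 66.0 and 73.3 CPM in the cDC1 libraries, 73.9, 74.7 and 83.7 CPM in those of cDC2 and 77.4, 80.6 and 78.4 CPM in those of pDC. The cDC2 and pDC libraries overlapped, and the highest cDC1 library lay just below the lowest cDC2 library. No comparison passed the threshold, with log2 fold changes of 0.20 (95% interval -0.02 to 0.42, edgeR adjusted p = 0.120) from cDC1 to pDC, 0.17 (-0.04 to 0.39, edgeR adjusted p = 0.248) from cDC1 to cDC2 and 0.03 (-0.19 to 0.24, edgeR adjusted p = 0.854) from cDC2 to pDC. The intervals exclude a change of 1 on the log2 scale in either direction. In the fit with a replicate block, which removes what same-numbered libraries share, the pDC against cDC1 value of 0.20 passed the threshold (edgeR adjusted p = 0.0390). It also did without the replicate 3 libraries (0.22, edgeR adjusted p = 0.0282) and when libraries were scaled by their totals only (0.29, edgeR adjusted p = 0.0267).

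Casp9, the initiator caspase of the mitochondrial pathway, stepped down from cDC1 to cDC2 to pDC. The gene (ENSMUSG00000028914) lies on the plus strand of chromosome 4 from 141793612 to 141815976 (GRCm38) with 9 exons in its principal transcript. Of its exon bases, 1.81% overlap genes on the other strand (Cela2a and Ctrc), which held between 0 and 33 counts in a library. The level was 72.5, 73.1 and 79.8 CPM in cDC1, then 57.4, 57.4 and 56.9 CPM in cDC2 and finally 40.1, 37.7 and 48.8 CPM in pDC, with no overlap between subsets. Casp9 was 1.78-fold lower in pDC than in cDC1 (log2 fold change -0.83, standard error 0.117, edgeR adjusted p = 0.000247) and 1.36-fold lower than in cDC2 (-0.44, standard error 0.117, edgeR adjusted p = 0.0115). The step between cDC2 and cDC1 was 1.31-fold (log2 fold change -0.39, standard error 0.116, edgeR adjusted p = 0.0343). That call was lost when any 1 of the 6 cDC libraries or pDC replicate 1 was left out, with edgeR adjusted p between 0.0503 and 0.0981 and log2 fold changes between -0.42 and -0.38. It was also lost with library totals as the only scaling (-0.28, edgeR adjusted p = 0.0843).

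Ripk3, the kinase that phosphorylates MLKL, showed the largest log2 fold change between pDC and cDC1 among the genes called. The gene (ENSMUSG00000022221) is on chromosome 14, minus strand, positions 55784995 to 55788865 (GRCm38), in 10 exons. Its level was 46.4, 44.6 and 51.2 CPM in the cDC1 libraries, 28.5, 25.7 and 22.6 CPM in cDC2 and 16.4, 15.7 and 12.1 CPM in pDC. The subsets followed the order of Casp9, cDC1 over cDC2 over pDC, and no libraries of different subsets overlapped. Ripk3 was 3.21-fold lower in pDC than in cDC1 (log2 fold change -1.68, standard error 0.153, edgeR adjusted p = 1.25e-05) and 1.74-fold lower than in cDC2 (-0.80, standard error 0.151, edgeR adjusted p = 0.00181). In cDC2 it was 1.85-fold lower than in cDC1 (-0.89, standard error 0.149, edgeR adjusted p = 0.00192). These calls held in each of the 19 alternatives tried for each comparison, with log2 fold changes of -1.77 to -1.54 for pDC against cDC1.

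Ripk1, whose protein acts upstream of RIPK3 in necroptosis and as a scaffold in TNF signalling, spread more between the replicates of cDC1 and of pDC than the subset means differed. The gene (ENSMUSG00000021408) lies on the plus strand of chromosome 13 from 34002363 to 34037147 (GRCm38) with 11 exons in its principal transcript. It shares 6.12% of its exon bases with Gm17084 on the same strand, which held at most 9 counts in a library, and 2.89% with Serpinb6a on the other strand, which held 135 to 561 counts. The strand setting of the counting is not given in the sources used here. In cDC1, Ripk1 stood at 75.8, 88.9 and 48.4 CPM, while cDC2 held 55.2, 61.5 and 51.4 CPM and pDC 72.0, 72.4 and 48.8 CPM. Replicate 3 was the lowest library in each subset, the same libraries in which the stress response genes were highest, and the part of that in the values was not tested. No comparison passed the threshold over all libraries, with log2 fold changes of -0.34 (95% interval -0.85 to 0.16, edgeR adjusted p = 0.334) from cDC1 to cDC2, -0.14 (-0.65 to 0.36, edgeR adjusted p = 0.640) from cDC1 to pDC and 0.20 (-0.30 to 0.71, edgeR adjusted p = 0.510) from cDC2 to pDC. Without the 3 replicate 3 libraries, an alternative chosen after seeing the data, Ripk1 was lower in cDC2 than in cDC1 (-0.53, edgeR adjusted p = 0.00617) and higher in pDC than in cDC2 (0.31, edgeR adjusted p = 0.0324). Within replicate number 3 the difference of cDC2 from cDC1 in log2(CPM + 1) was 0.09, and within numbers 1 and 2 it was -0.45 and -0.52. With the replicate block over all libraries, Ripk1 passed the threshold in no comparison. It was at -0.31 from cDC1 to cDC2 (edgeR adjusted p = 0.0813). From cDC1 to pDC it was at -0.13 (edgeR adjusted p = 0.400), and from cDC2 to pDC at 0.18 (edgeR adjusted p = 0.236).

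Mlkl, which encodes the membrane-breaking effector of necroptosis, was the lowest of the 8 genes in every library. The gene (ENSMUSG00000012519) is on chromosome 8, minus strand, positions 111311797 to 111338177 (GRCm38), in 11 exons. It was counted 58, 33 and 50 times in cDC1, 68, 58 and 23 times in cDC2 and 39, 16 and 0 times in pDC. As levels, these were 2.11, 1.38 and 3.38 CPM for cDC1, 2.17, 2.03 and 1.22 CPM for cDC2 and 1.18, 0.810 and 0 CPM for pDC. A count of 0 in pDC replicate 3 allows up to 0.175 CPM (3 counts of the library's total, for counting error only), and 18.3 counts would be found there at the mean rate of the other 2 pDC libraries. That library also listed many other genes of this depth at 0. All pDC libraries lay below all cDC1 and cDC2 libraries, by 1.18 against 1.22 CPM at the closest. The test did not pass the threshold, with a log2 fold change of -1.72 from cDC1 to pDC (95% interval -3.65 to 0.22, edgeR adjusted p = 0.130) and -1.39 from cDC2 to pDC (-3.31 to 0.53, edgeR adjusted p = 0.219). Between cDC2 and cDC1 it was -0.33 (-2.17 to 1.52, edgeR adjusted p = 0.833), so a difference of several fold could not have been detected. Without pDC replicate 3, the pDC values were -1.17 against cDC1 (edgeR adjusted p = 0.0807) and -0.85 against cDC2 (edgeR adjusted p = 0.191). Without all 3 replicate 3 libraries, they were -0.82 (edgeR adjusted p = 0.0722) and -1.05 (edgeR adjusted p = 0.0311).

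**Figure D3:**
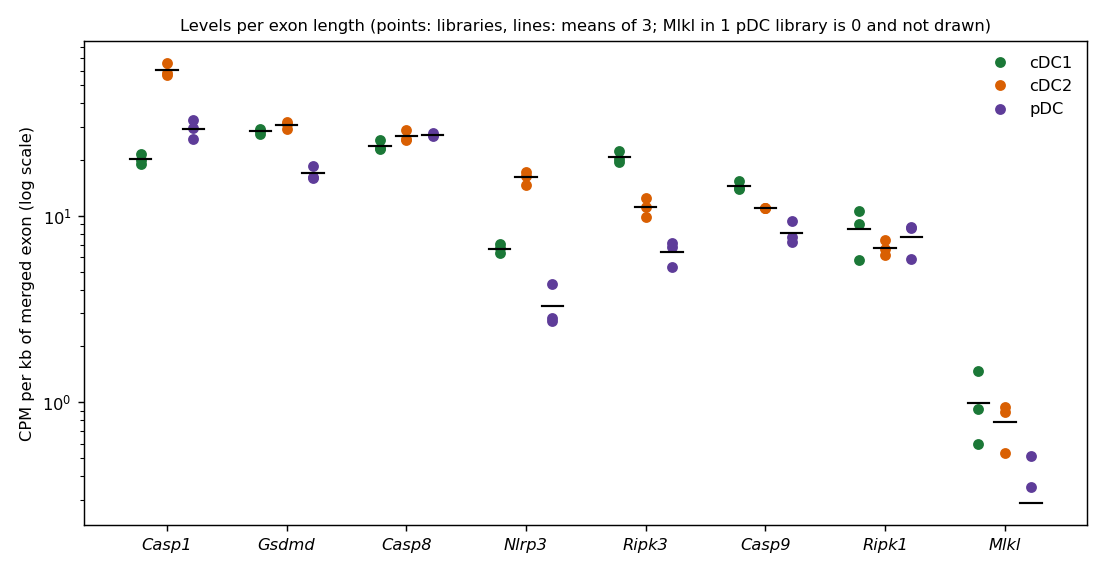
Level per kilobase of merged exon, in CPM per kb on a log axis, for the 8 genes ordered by their mean in cDC2, with points for libraries and lines for means of 3 (green cDC1, orange cDC2, purple pDC). Casp1 tops cDC2, Gsdmd tops cDC1, and Mlkl lies below all others, with the pDC library at 0 not drawn on the log axis.

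Levels of different genes were compared per kilobase of merged exon, since longer transcripts give more reads. In cDC1, Gsdmd came first at 28.4 ± 0.926 CPM per kb (SD, n = 3), followed by Casp8 at 23.7 ± 1.40, Ripk3 at 20.7 ± 1.49 and Casp1 at 20.1 ± 1.28. Ripk3 and Casp1 there differed by less than their spread. In cDC2, Casp1 led at 60.5 ± 4.54 CPM per kb, ahead of Gsdmd at 30.7 ± 1.35 and Casp8 at 26.8 ± 1.89, and Nlrp3 came after these at 16.1 ± 1.40. Ripk3 at 11.2 ± 1.30 and Casp9 at 11.0 ± 0.0547 followed within their spread. In pDC, Casp1 at 29.3 ± 3.45 CPM per kb and Casp8 at 27.3 ± 0.566 were the highest and differed by less than the spread of Casp1, with Gsdmd next at 16.9 ± 1.41. Nlrp3 was at 6.67 ± 0.361 CPM per kb in cDC1 and 3.28 ± 0.895 in pDC, above Mlkl alone in both. Ripk3 in pDC was at 6.42 ± 0.989 CPM per kb, below Gsdmd, Casp9 and Ripk1 as well. With the length of the principal transcript in place of merged exons, Casp8 and Casp1 changed places in pDC and Ripk3 and Casp9 in cDC2, and the other ranks were as before.

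Among the 8 genes, Casp9 and Ripk3 were the most alike across libraries (Pearson's r = 0.911 of log2(CPM + 1) over the 9 libraries), followed by Gsdmd and Nlrp3 (r = 0.886). Casp8 and Ripk3 were the most opposed (r = -0.767). Casp1 and Nlrp3, both highest in cDC2, had r = 0.659, since Nlrp3 was lowest in pDC and Casp1 lowest in cDC1. These correlations describe 9 libraries that fall into 3 subsets, and libraries of equal number share a date code, so no p is given.

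Over the 9625 other genes with a mean of at least 100 counts, the one most like Casp1 was Bach1, a transcriptional repressor of heme-responsive genes (r = 0.992), at 29.2, 82.3 and 38.9 CPM in cDC1, cDC2 and pDC (means of 3). It was followed by the chemokine receptor gene Ccr6 (r = 0.990) and the membrane protease gene St14 (r = 0.990). Nlrp3 was most like Dock4 (r = 0.996), Frmd5 (r = 0.994) and Csnk1g3 (r = 0.990). Casp9 was closest to the actin nucleation gene Arpc3 (r = 0.993), the tubulin gene Tubb6 (r = 0.992) and the chaperone gene Hspa8 (r = 0.990). The nearest to Ripk3 were Stbd1 (r = 0.993), Fam162a (r = 0.991) and Cd1d1 (r = 0.991), which encodes a molecule that presents lipids and stood at 139, 43.9 and 15.7 CPM in cDC1, cDC2 and pDC. For Gsdmd they were the histone gene H2afz (r = 0.994), Rnf19b (r = 0.994) and the phosphodiesterase gene Pde4b (r = 0.993). The genes nearest to Casp8 were Irgm1, Gsr and Smarcd1 (r of 0.950 to 0.960), to Ripk1 Zfp141, Usp40 and Iqsec1 (0.951 to 0.957) and to Mlkl Hspb11, Immp1l and Bcl2l1 (0.954 to 0.966). Bcl2l1, which encodes the survival protein BCL-XL, was at 13.9, 12.5 and 5.90 CPM in cDC1, cDC2 and pDC. Each set is the top 3 of at most 9625 correlations over 9 libraries, so a high r is in part due to that selection. Mlkl held 0 to 68 counts a library, so its nearest genes are uncertain.

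Other genes of these pathways were taken from 3 lists chosen by known role, with 45 genes tested in all. The lists were drawn up with earlier results of these data known, so their counts are not independent of the data. In pDC against cDC1, 15 of the 45 were lower in pDC and 5 higher. In pDC against cDC2, 21 were lower and 7 higher, and in cDC2 against cDC1, 11 were higher and 5 lower. The background shares for these comparisons are the 48.6%, 45.8% and 24.4% given above. In the fit with a replicate block they were 20 lower and 7 higher, 23 lower and 11 higher, and 17 higher and 7 lower, where the block fit called 58.6%, 55.5% and 35.6% of all genes, and each call made without the block was also made with it. Without the 3 replicate 3 libraries, an alternative added after seeing the data, pDC against cDC1 gave 23 lower and 10 higher of 46 tested, pDC against cDC2 24 lower and 11 higher, and cDC2 against cDC1 14 higher and 8 lower, where 63.0%, 59.8% and 37.7% of all genes were called. Without pDC replicate 3 alone, the counts were 17 lower and 7 higher, 23 lower and 8 higher, and 13 higher and 5 lower, beside 49.8%, 46.9% and 28.7% of all genes. Without cDC2 replicate 3 alone, they were 14 lower and 4 higher, 18 lower and 7 higher, and 8 higher and 6 lower, beside 49.6%, 41.9% and 21.7%.

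**Figure D4:**
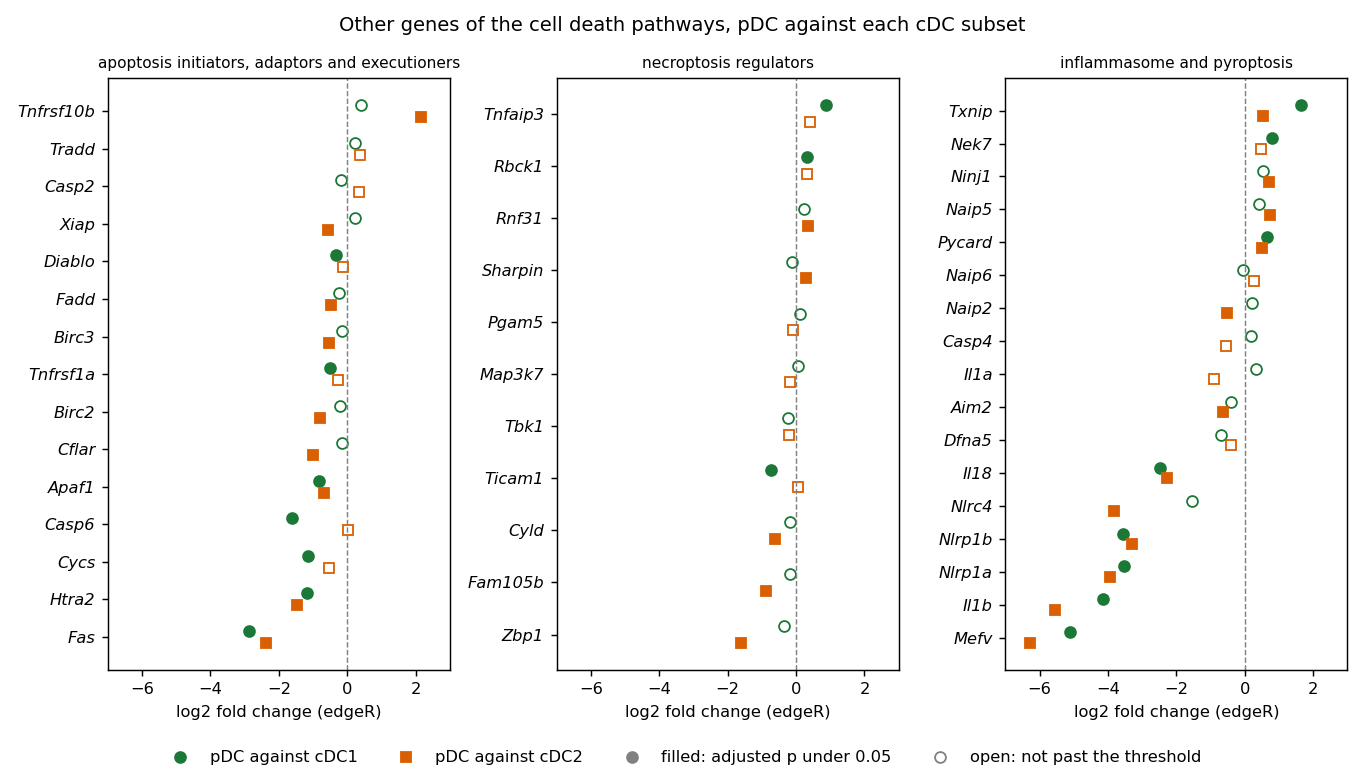
Log2 fold change of pDC against cDC1 (green circles) and against cDC2 (orange squares) for 43 of the 45 tested genes of the 3 pathway lists, a panel each, from the edgeR fit of all 9 libraries, filled where the adjusted p was under 0.05. Mefv and Il1b lie farthest to the left, at -5.10 and -4.14 against cDC1 and -6.29 and -5.54 against cDC2, and Txnip and Pycard are filled to the right of 0 in both comparisons.

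The apoptosis list holds 17 initiators, adaptors, executioners and inhibitors. In pDC against cDC1, 9 passed the threshold, each lower in pDC (among them Apaf1, Casp6, Cycs, Diablo, Fas, Htra2 and Tnfrsf1a). In pDC against cDC2, 10 were lower and 1 higher, and the lower ones included the inhibitors Xiap, Birc2, Birc3 and Cflar as well as Apaf1, Fadd, Fas and Htra2. Of all genes tested, 24.4% were lower in pDC and 24.3% higher in the first comparison, and 23.3% lower and 22.5% higher in the second. The median log2 fold change of the list was -0.33 and -0.53 in these comparisons, and that of all genes 0.02 and -0.01. Apaf1, which encodes the core of the apoptosome that activates caspase-9 and was chosen for description after its values were seen, was at 71.5, 74.7 and 75.3 CPM in pDC, below every cDC1 library (120 to 146 CPM) and every cDC2 library (114 to 124 CPM). Relative to cDC1 its log2 fold change in pDC was -0.83 (edgeR adjusted p = 9.76e-05), and relative to cDC2 it was -0.70 (edgeR adjusted p = 0.000353). Fadd, the adaptor that brings caspase-8 to death receptors, was lower in pDC than in cDC2 (-0.47, edgeR adjusted p = 0.0480) and at -0.23 against cDC1 (edgeR adjusted p = 0.297). The first of these calls was lost without cDC2 replicate 3 (-0.44, edgeR adjusted p = 0.108), without pDC replicate 3 (-0.35, edgeR adjusted p = 0.116) and without all 3 replicate 3 libraries (-0.31, edgeR adjusted p = 0.0530). Without cDC2 replicate 3, Cycs was past the threshold no longer in pDC against cDC1 (-1.19, edgeR adjusted p = 0.0540), nor was Xiap in pDC against cDC2 (-0.37, edgeR adjusted p = 0.148).

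The caspase genes did not share 1 order of subsets. Casp6, an executioner-type caspase, was at 94.9, 107 and 119 CPM in cDC1, with 30.6, 36.2 and 36.3 CPM in cDC2 and 36.0, 37.7 and 30.0 CPM in pDC. It was lower than in cDC1 in both other subsets, with a log2 fold change of -1.64 in cDC2 (edgeR adjusted p = 2.66e-05) and -1.63 in pDC (edgeR adjusted p = 7.03e-06). Casp2, an initiator caspase of stress responses, was lower in cDC2 than in cDC1 (log2 fold change -0.52, edgeR adjusted p = 0.0231). Tnfrsf10b, the receptor for the death ligand TRAIL, was low throughout, with 2.13 ± 0.615 CPM in cDC1, 0.637 ± 0.138 CPM in cDC2 and 2.87 ± 0.885 CPM in pDC. It was higher in pDC than in cDC2 (log2 fold change 2.14, edgeR adjusted p = 0.00292) and lower in cDC2 than in cDC1 (-1.73, edgeR adjusted p = 0.0168). In cDC2 against cDC1 the list had 3 of its 17 genes higher, the inhibitors Birc2, Cflar and Xiap, and 3 lower (Casp2, Casp6 and Tnfrsf10b). Birc3, another inhibitor of the list, was not called in this comparison (0.36, edgeR adjusted p = 0.0731). Over all genes tested, 12.7% were higher and 11.7% lower there. Of the 3 higher genes, Xiap was not called without cDC2 replicate 3 (0.56, edgeR adjusted p = 0.0649), nor Birc2 without all 3 replicate 3 libraries (0.57, edgeR adjusted p = 0.0504).

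The necroptosis list holds 11 tested regulators of RIPK1, RIPK3 and MLKL, among them negative ones. In pDC against cDC1, 2 were higher (Rbck1 and Tnfaip3) and 1 lower (Ticam1). In pDC against cDC2, 2 were higher (Rnf31 and Sharpin) and 3 lower (Cyld, Fam105b and Zbp1), and in cDC2 against cDC1 3 were higher (Cyld, Fam105b and Zbp1) and 2 lower (Sharpin and Ticam1). Among all genes tested, 48.6%, 45.8% and 24.4% were called in these comparisons, in this order. Zbp1, a sensor of Z-form nucleic acids that binds RIPK3, was at 52.4, 56.8 and 82.8 CPM in cDC2, 23.6, 22.2 and 34.3 CPM in cDC1 and 15.2, 20.2 and 27.3 CPM in pDC. It was higher in cDC2 than in cDC1 (log2 fold change 1.26, edgeR adjusted p = 0.00612) and lower in pDC than in cDC2 (-1.62, edgeR adjusted p = 0.000733), with replicate 3 highest in each subset. Ticam1, the adaptor TRIF that links toll-like receptors to RIPK1 and RIPK3, averaged 51.7 ± 1.07 CPM in cDC1, 30.1 ± 1.58 CPM in cDC2 and 31.3 ± 1.18 CPM in pDC. Against cDC1 its log2 fold change was -0.78 in cDC2 (edgeR adjusted p = 0.000343) and -0.72 in pDC (edgeR adjusted p = 0.000205). Tnfaip3, which encodes the ubiquitin-editing inhibitor A20, was higher in pDC than in cDC1 (0.89, edgeR adjusted p = 0.00413). Against cDC2 it was at 0.40 in pDC (edgeR adjusted p = 0.126), and it passed the threshold there with the replicate block (0.38, edgeR adjusted p = 0.0202). The call of Rbck1 was lost without cDC2 replicate 3 (0.28, edgeR adjusted p = 0.0778) and without pDC replicate 3 (0.22, edgeR adjusted p = 0.136), and that of Sharpin in pDC against cDC2 without pDC replicate 3 (0.29, edgeR adjusted p = 0.0778).

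The inflammasome and pyroptosis list holds 17 tested genes. In pDC against cDC1, 5 were lower (Il18, Il1b, Mefv, Nlrp1a and Nlrp1b) and 3 higher (Nek7, Pycard and Txnip). In pDC against cDC2, 8 were lower (the same 5 with Aim2, Naip2 and Nlrc4) and 4 higher (Naip5, Ninj1, Pycard and Txnip). In cDC2 against cDC1, 5 passed, each higher in cDC2 (Il1b, Mefv, Naip2, Nlrc4 and Txnip). Calls among all genes tested made up 48.6%, 45.8% and 24.4% in the 3 comparisons, in this order. Without cDC2 replicate 3, Naip2 in pDC against cDC2 was past the threshold no longer (-0.46, edgeR adjusted p = 0.0644). The median log2 fold change of the list was -0.04, -0.55 and 0.33, beside 0.02, -0.01 and 0.03 for all genes. Casp12, Nlrp6, Nlrp12 and Naip1 were listed and fell below the filter on low counts.

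Il1b and Mefv had the largest differences of this list. Il1b, which encodes the cytokine that caspase-1 matures, was at 119, 113 and 101 CPM in cDC2, 47.1, 37.0 and 42.0 CPM in cDC1 and 2.15, 1.06 and 4.06 CPM in pDC. Its log2 fold change in pDC was -5.54 against cDC2 (edgeR adjusted p = 1.67e-06) and -4.14 against cDC1 (edgeR adjusted p = 7.62e-06), and 1.40 in cDC2 against cDC1 (edgeR adjusted p = 0.00677). Mefv, which encodes the sensor pyrin, was at 84.6, 92.2 and 70.3 CPM in cDC2, 39.1, 49.5 and 19.7 CPM in cDC1 and 1.66, 0.608 and 0.648 CPM in pDC. In pDC it was at -6.29 against cDC2 and -5.10 against cDC1 on the log2 scale (edgeR adjusted p = 3.05e-06 and 9.21e-06). Its call in cDC2 against cDC1 was lost without cDC2 replicate 3 (1.26, edgeR adjusted p = 0.0547). Pycard, which encodes the adaptor ASC, went the other way, at 110, 94.7 and 112 CPM in pDC, between 63.4 and 73.3 CPM in cDC1 and between 71.5 and 77.7 CPM in cDC2. The log2 fold change in pDC was 0.63 relative to cDC1 (edgeR adjusted p = 0.000777) and 0.50 relative to cDC2 (edgeR adjusted p = 0.00364).

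Txnip, a regulator of thioredoxin that has been tied to NLRP3 activation, was highest in pDC at 652 ± 24.1 CPM, against 452 ± 51.1 in cDC2 and 208 ± 2.03 in cDC1. Each step was past the threshold, with log2 fold changes of 1.12 from cDC1 to cDC2 (edgeR adjusted p = 3.62e-05), 0.53 from cDC2 to pDC (edgeR adjusted p = 0.00146) and 1.65 from cDC1 to pDC (edgeR adjusted p = 8.86e-07). Nek7, a kinase that binds NLRP3, was higher in pDC than in cDC1 (0.80, edgeR adjusted p = 0.0136), at 178, 171 and 250 CPM against 100, 102 and 142. Against cDC2 it was at 0.47 in pDC (edgeR adjusted p = 0.112), and it passed the threshold there with the replicate block (0.48, edgeR adjusted p = 0.000166). Ninj1, which mediates membrane rupture late in lytic death, was at 22.6, 22.1 and 20.7 CPM in pDC and 17.4, 11.8 and 10.8 in cDC2 (log2 fold change 0.71, edgeR adjusted p = 0.0238). That call was lost without cDC2 replicate 3 (0.57, edgeR adjusted p = 0.0808). Casp4, which encodes mouse caspase-11, the sensor of intracellular lipopolysaccharide, averaged 9.91 ± 1.49 CPM in cDC1, 16.2 ± 1.01 CPM in cDC2 and 11.1 ± 3.98 CPM in pDC. Over all libraries and without the block none of its comparisons passed the threshold (log2 fold change 0.71 for cDC2 against cDC1, edgeR adjusted p = 0.0619). With the replicate block it was higher in cDC2 than in cDC1 (0.74, edgeR adjusted p = 0.0268) and lower in pDC than in cDC2 (-0.60, edgeR adjusted p = 0.0415). Both also passed without pDC replicate 3 (0.71 and -0.87, edgeR adjusted p = 0.00772 and 0.00321).

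Several sensor genes were at 0 in pDC replicate 3. Nlrc4, which encodes the scaffold of the flagellin inflammasome, was at 21.2, 29.8 and 17.4 CPM in cDC2, 5.39, 4.42 and 4.13 CPM in cDC1 and 2.54, 2.03 and 0 CPM in pDC. Its log2 fold change was 2.29 from cDC1 to cDC2 (edgeR adjusted p = 0.0330) and -3.84 from cDC2 to pDC (edgeR adjusted p = 0.00187). The first of these was 2.42 without cDC2 replicate 3 and past the threshold no longer (edgeR adjusted p = 0.0521). Nlrp1a and Nlrp1b, which encode inflammasome sensors, were at -3.53 and -3.57 in pDC against cDC1 (edgeR adjusted p = 0.00134 and 0.00300) and -3.95 and -3.28 against cDC2 (edgeR adjusted p = 0.000769 and 0.00490). Without pDC replicate 3 the values against cDC1 were -3.02 for Nlrp1a and -3.06 for Nlrp1b (edgeR adjusted p = 1.68e-06 and 0.000681), and Nlrc4 passed the threshold there as well (-1.02, edgeR adjusted p = 0.0146). Naip5, whose protein binds flagellin and activates NLRC4, was higher in pDC than in cDC2 (0.72, edgeR adjusted p = 0.00711). Naip2, Naip5 and Naip6, and Nlrp1a and Nlrp1b, are near copies of each other, so reads could have been split or lost between them and their values are uncertain.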

How the data were processed

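RNA from sorted splenic cDC1, cDC2 and pDC was sequenced as stranded polyadenylated libraries (1 read of 75 bases). The authors deposited raw read counts per gene, not normalized. Their processing notes name STAR, SAMtools, MultiQC and featureCounts on mm10, and the annotation and strand setting are not given in the sources used here. Groups and replicate numbers come from the labels, whose date codes are shared by libraries of equal number. Deviations from the subset means were alike in libraries of equal number (correlation across genes 0.266 to 0.543 in all 9 pairs, against at most 0.170 in other pairs), so the numbers pair the samples. Replicates differed by more than sampling noise (chi-square per degree of freedom 10.6 to 67.7).

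Tests used edgeR 4.0.16 in R 4.3.3 (filterByExpr with a minimum count of 10, TMM factors, quasi-likelihood test over all 9 libraries with the subset as the only term, Benjamini-Hochberg adjustment over 13819 genes, threshold 0.05). The standard error is the absolute log2 fold change over the square root of F. Pairing by number is not in the main fit and enters only in the replicate block, which called 58.6%, 55.5% and 35.6% of all genes. All 8 genes are named, and of the pathway lists, for each comparison, the 3 largest rises and 3 largest falls that passed the test and averaged at least 50 counts in one of the groups, with Casp4, Pycard, Zbp1 and Fadd. Single values of some list genes are not reported here. The genes most alike are the 3 with the highest Pearson's r of log2(CPM + 1), leaving out Gm and Rik names. The members and lists were chosen with earlier results of these data known. Positions and lengths are from GENCODE M21 (GRCm38, the build that mm10 names), promoters from RefSeq. The test was also run on simulated counts, drawn independently for each library. These had no effect shared by libraries of equal number and no added zeros, so the run cannot show how the test behaves with those features. Alternatives were library totals, upper quartile and RLE scaling, DESeq2 1.42.0, limma-voom (limma 3.58.1), other filters, the 6 libraries compared, the replicate block, leaving out libraries and a fold threshold. Figures used matplotlib 3.10.9.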

Additional observations from a re-analysis of the deposited data

How the results depend on the processing

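Over 24 results (8 genes in 3 comparisons), 453 values were computed under other settings. Of these, 438 stayed on the same side of the threshold, 9 were no longer past it, 6 were newly past it and 0 turned the direction of a call. A result that was not called could change sign and still count among the 438, as Ripk1 in pDC against cDC1 did (-0.39 to 0.05). All 9 losses were of Casp9 in cDC2 against cDC1, which with library totals only was -0.28 (edgeR adjusted p = 0.0843), with no filter -0.40 (edgeR adjusted p = 0.0581) and with libraries left out between -0.42 and -0.37. Casp8 in pDC against cDC1 was newly past the threshold with library totals only (0.29), with the replicate block (0.20) and without all replicate 3 libraries (0.22). It did not pass when any 1 library was left out, and over all fits with libraries left out it ranged from 0.16 to 0.22. With libraries left out, Ripk1 ranged from 0.11 to 0.37 in pDC against cDC2 and from -0.58 to -0.15 in cDC2 against cDC1, and Mlkl from -2.11 to -0.85 in pDC against cDC2, each newly past the threshold only without all replicate 3 libraries. The cause was not tested. The replicate block changed no other call of the 8 genes. When calls also had to reach a log2 change of 1 in size, 2 of the 8 genes were called in each comparison, by construction fewer. Mlkl had no value where at least 10 counts were required in every library. Library totals as the only scaling moved the median of all genes by 0.11 on the log2 scale in cDC2 against cDC1 and 0.09 in pDC against cDC1. Depth limits Mlkl most, at 0 to 68 counts a library.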
